A study of Homo sapiens with 16 samples.

Results

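The genes followed here are 10 transcripts of the kinase ERK's feedback circuit, 8 that encode its brakes and 2 that encode transcription factors induced beside them: the Sprouty genes SPRY1, SPRY2 and SPRY4, their relatives SPRED1 and SPRED2, the phosphatase genes DUSP4, DUSP5 and DUSP6, and the transcription factor genes ETV4 and ETV5. They were chosen by name, with earlier results of these data known. Counts of members set beside shares of all genes are therefore descriptions. Every row of the deposited table annotated with exactly 1 of these symbols was taken, which gave 24 probe sets for the 10 genes, of 41091 probe sets and 19775 genes with a single symbol in the series. A probe set is the group of short array probes summarized as 1 value. Each gene was represented by its brightest probe set, the one with the highest mean over the 16 arrays, and the other 14 are given beside it.

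The series holds 16 one-colour Affymetrix arrays of 2 human mammary cell lines, and asks how glucose metabolism regulates gene expression. MCF10A cells are mammary epithelium that is immortalized but forms no tumours. They were kept in medium with 5% horse serum, insulin, epidermal growth factor (hEGF), cholera toxin and hydrocortisone. MDA-MB-231 cells come from a breast cancer and were kept in medium with 10% fetal bovine serum. Both media held 17.5 mM glucose. The sugar analogue 2-deoxy-glucose (2DG), which blocks use of glucose, was given to each line at 50 mM, with water as the vehicle control, and RNA was taken after 24 h. This made 4 groups of 4 biological replicates, lettered A to D: MCF10A on vehicle, MCF10A with 2DG, MDA-MB-231 on vehicle and MDA-MB-231 with 2DG. Line and medium cannot be told apart, and each kind of cell is represented by 1 line.

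Growth factor receptors switch on RAS, which activates the kinases RAF, MEK and ERK in turn. ERK raises transcription of its own brakes: Sprouty and SPRED proteins act at the level of RAS and RAF, and dual-specificity phosphatases (DUSP) remove the activating phosphates from MAP kinases. ETV4 and ETV5 belong to the PEA3 group of ETS factors and are induced by the same signal, in part through relief from the repressor Capicua (CIC). In mammary epithelium these transcripts are widely read as a record of recent ERK activity. Activity of ERK itself was not measured on these arrays, and a change in RNA does not show a change in protein.

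The promoter windows of genes that moved in different ways are shown here because the values below separate them. RefSeq's promoter table (GRCh38.p14), which runs from 250 bases before to 50 after a gene's start, held 6 of the 10 genes in 10 windows. DUSP4, DUSP5, ETV4 and ETV5 had no entry. Capitals mark 2 motifs searched on both strands, the Capicua octamers TGAATGAA, TGAATGGA, TCAATGAA and TCAATGGA and the ETS hexamer CCGGAA. SPRY1 and SPRY2 have several listed starts, and for each the window shown is the one with an ETS hexamer. SPRY2 and SPRY4 moved in opposite directions in the lines, SPRY1 fell in both, and DUSP6 fell in MCF10A, while its change in MDA-MB-231 did not pass the test.
SPRY2, first listed start, chr13:80341077-80341376, minus strand: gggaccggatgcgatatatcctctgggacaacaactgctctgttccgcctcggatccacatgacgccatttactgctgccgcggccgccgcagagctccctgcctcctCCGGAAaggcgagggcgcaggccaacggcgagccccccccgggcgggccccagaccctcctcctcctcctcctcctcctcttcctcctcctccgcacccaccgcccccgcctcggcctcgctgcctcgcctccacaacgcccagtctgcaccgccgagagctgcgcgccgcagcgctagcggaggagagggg
SPRY4, chr5:142324198-142324497, minus strand: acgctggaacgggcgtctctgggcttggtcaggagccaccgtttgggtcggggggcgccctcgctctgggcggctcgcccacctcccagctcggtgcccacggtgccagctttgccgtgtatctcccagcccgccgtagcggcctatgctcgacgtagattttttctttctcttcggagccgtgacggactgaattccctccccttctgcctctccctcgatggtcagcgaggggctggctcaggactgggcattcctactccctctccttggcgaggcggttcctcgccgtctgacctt
SPRY1, second listed start, chr4:123398136-123398435, plus strand: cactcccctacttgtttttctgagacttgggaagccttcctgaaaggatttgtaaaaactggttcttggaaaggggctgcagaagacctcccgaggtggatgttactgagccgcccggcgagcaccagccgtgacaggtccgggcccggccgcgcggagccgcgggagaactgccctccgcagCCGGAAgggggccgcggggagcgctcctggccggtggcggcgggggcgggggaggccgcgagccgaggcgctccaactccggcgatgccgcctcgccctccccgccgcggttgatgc
DUSP6, chr12:89352452-89352751, minus strand: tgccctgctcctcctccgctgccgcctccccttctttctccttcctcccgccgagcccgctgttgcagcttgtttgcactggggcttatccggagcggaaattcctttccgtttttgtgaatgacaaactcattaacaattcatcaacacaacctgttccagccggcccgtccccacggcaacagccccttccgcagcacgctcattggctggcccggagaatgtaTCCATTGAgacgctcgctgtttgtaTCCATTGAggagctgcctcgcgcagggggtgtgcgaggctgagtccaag
The DUSP6 window held 2 Capicua octamers, both as TCCATTGA, the other strand of TCAATGGA, with their first bases 24 bases before the start and at base 2 of the transcript. None of the other 9 windows held one, and 3.77% of all 35116 windows of the table did. The ETS hexamer was found once in the first window of SPRY2 and once in the second of SPRY1, against 17.2% of all windows. The AP-1 heptamer TGANTCA occurred in 1 member, SPRED2, at its second listed start (7.71% of all windows), and the CRE octamer TGACGTCA and the CArG box occurred in none of the 10 windows (1.85% and 1.29% of all windows). The first window of each of SPRY1 and SPRED2, the other SPRY2 windows and those of SPRY4 and SPRED1 held no match to any of these motifs. A match of letters is not evidence of binding, and the motifs were chosen with these windows in view.

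The arrays carried the markers of their labels in part. The 5 measured epithelial markers (KRT5, KRT14, CDH3, CDH1 and EPCAM) were higher in MCF10A, CDH1 at 13.06 on vehicle against 4.62 in MDA-MB-231. KRT17, TP63 and LAMA3 of the same list are not analysed here. Of 6 mesenchymal markers VIM, ZEB1, CDH11 and AXL were higher in MDA-MB-231, while SPARC and TWIST1 were higher in MCF10A. Of 9 markers of leukocytes, fibroblasts and endothelium, all measured, 3 rose with 2DG in MCF10A, where COL1A1 went from 9.04 to 11.15, CD14 from 8.10 to 8.72 and CDH5 from 4.70 to 4.90 (group means). In MDA-MB-231 3 rose, COL3A1 from 4.93 to 6.46, PECAM1 from 7.28 to 8.22 and COL1A1 from 7.38 to 7.83, and PTPRC fell from 4.17 to 3.97. The summed log2 level of the 9 was 56.6 to 57.5 on vehicle and 59.7 to 60.6 with 2DG in MCF10A, and 53.3 to 53.8 and 56.5 to 57.5 in MDA-MB-231. It was therefore higher with 2DG in both lines, and its part in the results below was not tested. The actin 3'/5' control ratio (log2), a sign of RNA integrity, moved with 2DG: it was 0.39 ± 0.067 (SD, n = 4) and 0.55 ± 0.068 in MCF10A on vehicle and with 2DG, and 0.60 ± 0.33 and 1.03 ± 0.071 in MDA-MB-231. MDA-MB-231 vehicle replicate B stood at 1.09, where the other vehicle arrays of either line were at most 0.49. Without replicate B every call given below on the brightest probe set of a member kept its direction and its side of the threshold.

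In MCF10A, 8 of the 10 genes fell with 2DG and none rose, since all 10 changes were below 0. SPRY1 fell most, 4.35-fold, followed by DUSP6 (2.72-fold), SPRY4 (2.69-fold) and DUSP4 (2.02-fold). In MDA-MB-231, 7 of the 10 rose, led by DUSP5 (2.68-fold), SPRY4 (2.38-fold) and SPRY2 (1.93-fold), and SPRY1 alone fell, 2.67-fold. The same 6 genes fell in MCF10A and rose in MDA-MB-231: SPRY2, SPRY4, SPRED1, DUSP4, DUSP5 and ETV5. Over all 19775 genes, 25.2% fell and 29.0% rose in MCF10A, 25.5% rose and 25.4% fell in MDA-MB-231, 3.59% fell in the first and rose in the second, and 15.9% fell in both, as SPRY1 did. On all 4 treated arrays 9 members lay below every vehicle array in MCF10A (24.2% of all genes). In MDA-MB-231 6 lay above (22.9% of all genes) and SPRY1 below (24.0%). A call here is a limma p, adjusted by Benjamini-Hochberg over all genes, under 0.05. The median change of the members was -0.92 in MCF10A and 0.32 in MDA-MB-231 (log2), beside 0.02 and 0.03 for all genes. Fewer cells of a kind and less RNA per cell cannot be told apart in such bulk samples.

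**Figure D1:**
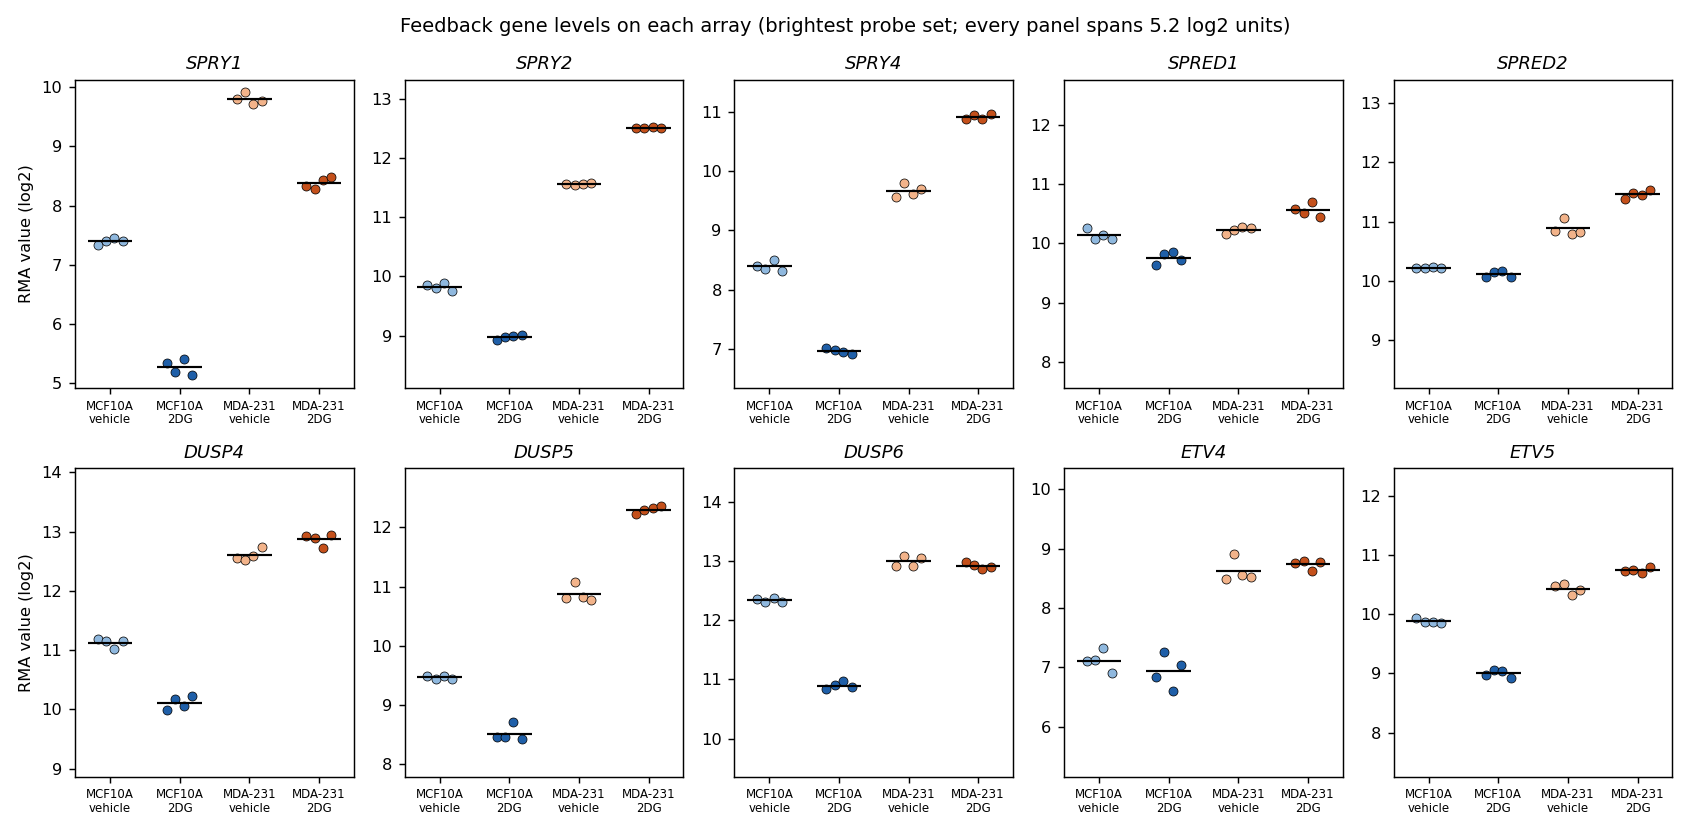
Deposited RMA values (log2, vertical axis) of the brightest probe set of each of the 10 genes on each of the 16 arrays, by group; points are arrays, bars are means of 4, and all panels have the same height in log2 units. For SPRY2, SPRY4 and DUSP5 the order is MCF10A with 2DG, MCF10A on vehicle, MDA-MB-231 on vehicle and MDA-MB-231 with 2DG, with no overlap between groups.

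The Sprouty proteins block the step from receptors to RAS and RAF. SPRY2, the most studied of them in epithelia, read 9.85, 9.80, 9.89 and 9.76 (log2, replicates A to D) in MCF10A on vehicle and 8.92, 8.98, 9.0 and 9.01 with 2DG. Its values in MDA-MB-231 were 11.56, 11.55, 11.56 and 11.57 on vehicle and 12.50, 12.51, 12.52 and 12.51 with 2DG. The 4 groups did not overlap at any step of the order, and the spread within a group was far below the distance between groups. The change was -0.85 ± 0.034 (SE, n = 4 per group) in MCF10A and 0.95 ± 0.034 in MDA-MB-231 (limma adjusted p = 1.57e-12 and 6.94e-13). SPRY2 has a single probe set.

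SPRY4 had the same order of groups, with larger changes under 2DG. It read 8.40, 8.34, 8.50 and 8.32 in MCF10A on vehicle and 7.02, 6.98, 6.95 and 6.91 with 2DG. The arrays of MDA-MB-231 gave 9.56, 9.79, 9.61 and 9.69 on vehicle and 10.88, 10.94, 10.87 and 10.97 with 2DG. The lowest and highest groups were thus both treated ones, and no groups overlapped. The change was -1.43 ± 0.052 in MCF10A and 1.25 ± 0.052 in MDA-MB-231 (limma adjusted p = 5.33e-13 and 4.38e-12).

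SPRY1 differed from SPRY2 and SPRY4 in that it fell in both lines. It read 7.34, 7.40, 7.45 and 7.40 in MCF10A on vehicle and 5.35, 5.19, 5.42 and 5.14 with 2DG. Its values in MDA-MB-231 were 9.80, 9.91, 9.72 and 9.77 on vehicle and 8.34, 8.28, 8.43 and 8.48 with 2DG. Treated MDA-MB-231 arrays still lay above every MCF10A array, and no groups overlapped. The change was -2.12 ± 0.063 in MCF10A and -1.42 ± 0.063 in MDA-MB-231 (limma adjusted p = 3.83e-14 and 9.68e-12). The other probe set of SPRY1, 230212_at, gave -0.31 and -1.06 (adjusted p over probe sets = 0.0417 and 1.06e-06), with overlapping arrays in MCF10A, where it read between 5.80 and 6.57 with 2DG and between 6.48 and 6.66 on vehicle. Both probe sets therefore fell in both lines, but which line fell more depended on the probe set.

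SPRED1 and SPRED2 carry a Sprouty domain behind an EVH1 domain, and SPRED1 is known to bring neurofibromin, which turns RAS off, to the membrane. SPRED1 read 10.25, 10.07, 10.14 and 10.08 in MCF10A on vehicle and 9.63, 9.82, 9.85 and 9.72 with 2DG. The arrays of MDA-MB-231 gave 10.16, 10.22, 10.27 and 10.25 on vehicle and 10.58, 10.51, 10.69 and 10.45 with 2DG. The vehicle groups of the lines overlapped on this probe set, while the treated groups lay apart. The changes were small, -0.38 ± 0.060 and 0.33 ± 0.060 (limma adjusted p = 3.67e-05 and 1.62e-04). On the other probe sets SPRED1 changed by -0.79 and -0.84 in MCF10A and by 0.05 (235074_at, adjusted p = 0.567) and 0.39 (244439_at, adjusted p = 0.0112) in MDA-MB-231, so the rise in MDA-MB-231 was called on 2 of its 3 probe sets.

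SPRED2 moved in MDA-MB-231 and little in MCF10A. It read 10.21, 10.22, 10.23 and 10.22 in MCF10A on vehicle and 10.06, 10.15, 10.17 and 10.06 with 2DG. Its values in MDA-MB-231 were 10.85, 11.07, 10.80 and 10.83 on vehicle and 11.38, 11.49, 11.45 and 11.53 with 2DG. All treated MDA-MB-231 arrays lay above those on vehicle by 0.58 ± 0.054 on average (limma adjusted p = 9.89e-08). In MCF10A the arrays did not overlap either, yet the difference of -0.11 ± 0.054 did not pass (adjusted p = 0.101, and between 0.0167 and 0.0496 under 4 alternatives given at the end). The remaining probe sets of SPRED2 were dim, with group means from 5.44 to 5.70 for 212466_at and from 3.82 to 4.02 for 214026_s_at, and carried changes of at most 0.23.

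The DUSP genes encode phosphatases that act on MAP kinases: DUSP6 on ERK in the cytoplasm, DUSP5 on ERK in the nucleus, and DUSP4 in the nucleus on several MAP kinases. DUSP5 read 9.49, 9.45, 9.50 and 9.45 in MCF10A on vehicle and 8.47, 8.46, 8.71 and 8.43 with 2DG. The arrays of MDA-MB-231 gave 10.81, 11.08, 10.83 and 10.78 on vehicle and 12.22, 12.29, 12.32 and 12.36 with 2DG. No groups overlapped, and the single probe set of this gene gave the largest rise among the members. The change was -0.96 ± 0.068 in MCF10A and 1.42 ± 0.068 in MDA-MB-231 (limma adjusted p = 2.45e-09 and 2.17e-11). The rise was 1.49 ± 0.058 without vehicle replicate B.

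DUSP4 fell in MCF10A and rose slightly in MDA-MB-231. It read 11.18, 11.16, 11.02 and 11.15 in MCF10A on vehicle and 9.99, 10.18, 10.06 and 10.22 with 2DG. Its values in MDA-MB-231 were 12.56, 12.52, 12.58 and 12.74 on vehicle and 12.92, 12.89, 12.73 and 12.94 with 2DG, where treated replicate C lay just below vehicle replicate D. The change was -1.02 ± 0.064 and 0.27 ± 0.064 (limma adjusted p = 5.35e-10 and 0.0019). The rise depended in size on the probe set: it was 0.71 ± 0.047 on 204015_s_at and 0.24 ± 0.041 on 226034_at, both without overlap, while all 3 probe sets fell in MCF10A by 0.68 to 1.02.

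DUSP6, often used as a direct readout of ERK, fell in MCF10A and did not pass in MDA-MB-231. It read 12.36, 12.31, 12.38 and 12.30 in MCF10A on vehicle and 10.83, 10.91, 10.97 and 10.87 with 2DG. The arrays of MDA-MB-231 gave 12.92, 13.09, 12.92 and 13.05 on vehicle and 12.98, 12.93, 12.87 and 12.89 with 2DG, and those groups overlapped. The change was -1.44 ± 0.047 in MCF10A (limma adjusted p = 1.03e-13). In MDA-MB-231 it was -0.08 ± 0.047, with a 95% confidence interval from -0.18 to 0.02 (adjusted p = 0.191), and 0.07 and -0.09 on the other probe sets, neither of which passed. Among the 10 windows at hand, only the one printed above for this gene held Capicua octamers. DUSP4, DUSP5, ETV4 and ETV5 had no window to search, and a link of the octamers to these values was not tested.

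ETV4 and ETV5 are the PEA3 factors of the set. ETV5 read 9.94, 9.87, 9.87 and 9.85 in MCF10A on vehicle and 8.97, 9.06, 9.05 and 8.93 with 2DG. Its values in MDA-MB-231 were 10.47, 10.51, 10.33 and 10.41 on vehicle and 10.73, 10.75, 10.69 and 10.79 with 2DG. No groups overlapped, and the change was -0.88 ± 0.045 in MCF10A and 0.31 ± 0.045 in MDA-MB-231 (limma adjusted p = 3.03e-11 and 1.49e-05). The rise in MDA-MB-231 was 0.63 on 203348_s_at and 0.68 on 216375_s_at. It was absent on 230102_at, at -0.02 (adjusted p = 0.948). There vehicle replicate B read 6.94 and the other vehicle arrays 7.82 to 7.84, while the treated arrays read 7.51 to 7.66. All treated arrays thus lay below every vehicle array of the line except B, so the low value of B does not hide a rise. On the dim 231083_at the change was 0.11 (adjusted p = 0.392).

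ETV4 did not pass in either line. It read 7.10, 7.12, 7.33 and 6.90 in MCF10A on vehicle and 6.84, 7.25, 6.60 and 7.03 with 2DG. The arrays of MDA-MB-231 gave 8.49, 8.91, 8.56 and 8.52 on vehicle and 8.76, 8.80, 8.63 and 8.77 with 2DG. The treated and untreated arrays of a line overlapped, while the lines stayed apart. The differences were -0.18 ± 0.12 and 0.12 ± 0.12, with 95% confidence intervals from -0.45 to 0.08 and from -0.15 to 0.39 (limma adjusted p = 0.245 and 0.473). ETV4 had the largest spread of the members, and its other probe set gave -0.32 and 0.25 (adjusted p = 0.0693 and 0.168).

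**Figure D2:**
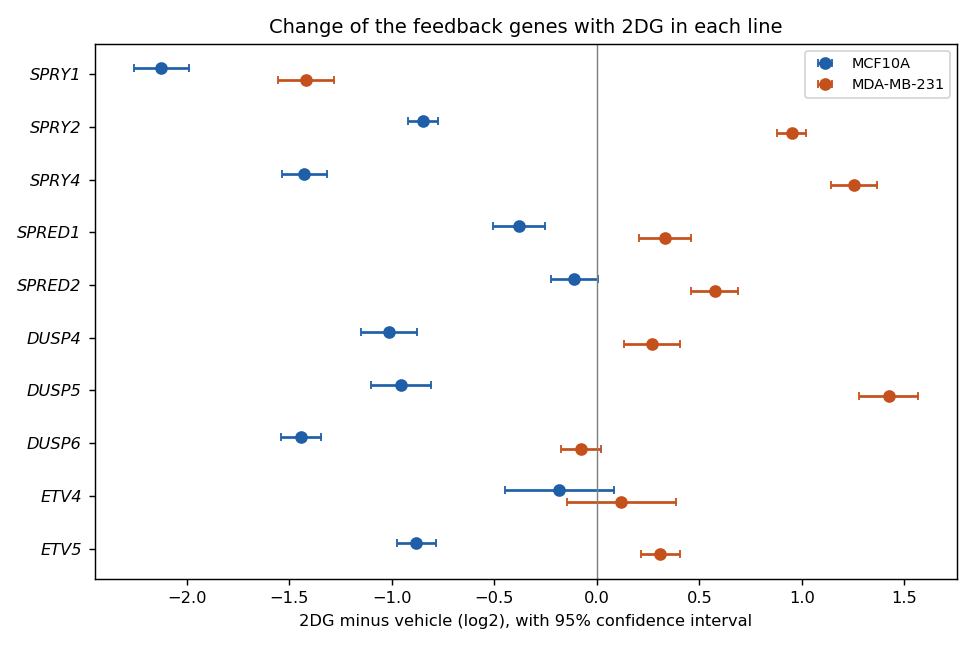
Change with 2DG (2DG minus vehicle, log2, horizontal axis) of the brightest probe set of each gene in MCF10A and in MDA-MB-231, with 95% confidence intervals of the limma fit. All 10 values are below 0 in MCF10A, 8 of them called, and 7 of 10 are called above 0 in MDA-MB-231, with SPRY1 at -1.42.

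The response differed between the lines by the interaction test, the MDA-MB-231 change minus the MCF10A change, for 9 of the 10 genes, all with a higher value in MDA-MB-231. Over all genes 22.3% were called in that direction and 23.6% in the other. The difference was 2.68 ± 0.074 for SPRY4, 2.38 ± 0.096 for DUSP5 and 1.80 ± 0.048 for SPRY2 (limma adjusted p = 1.12e-13, 7.44e-12 and 8.12e-14). It was 1.37 ± 0.066 for DUSP6, 1.29 ± 0.091 for DUSP4 and 1.19 ± 0.063 for ETV5 (adjusted p between 5.79e-11 and 5.52e-09). Smaller differences were those of SPRED1 (0.71), SPRY1 (0.71) and SPRED2 (0.69). For SPRY1 this value turned with the probe set, to -0.75 ± 0.17 on 230212_at (adjusted p over probe sets = 0.00182), so no order of the lines is given for it. For ETV4 the difference was 0.30 ± 0.18 (adjusted p = 0.191) on the brightest probe set and 0.56 ± 0.20 on the other (adjusted p over probe sets = 0.0296).

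Over the 24 probe sets of the 10 genes, 18 fell in MCF10A, and 13 rose and 2 fell in MDA-MB-231, where the 2 were those of SPRY1. Of all 41091 probe sets 26.6% rose and 24.4% fell in MCF10A, and 24.5% rose and 24.0% fell in MDA-MB-231. Probe sets of 1 gene measure the same transcripts and are not independent. The 6 that did not pass in MCF10A were both of ETV4, all 3 of SPRED2 and 231083_at of ETV5. The dim ones among these carry little information, because RMA compresses small signals.

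**Figure D3:**
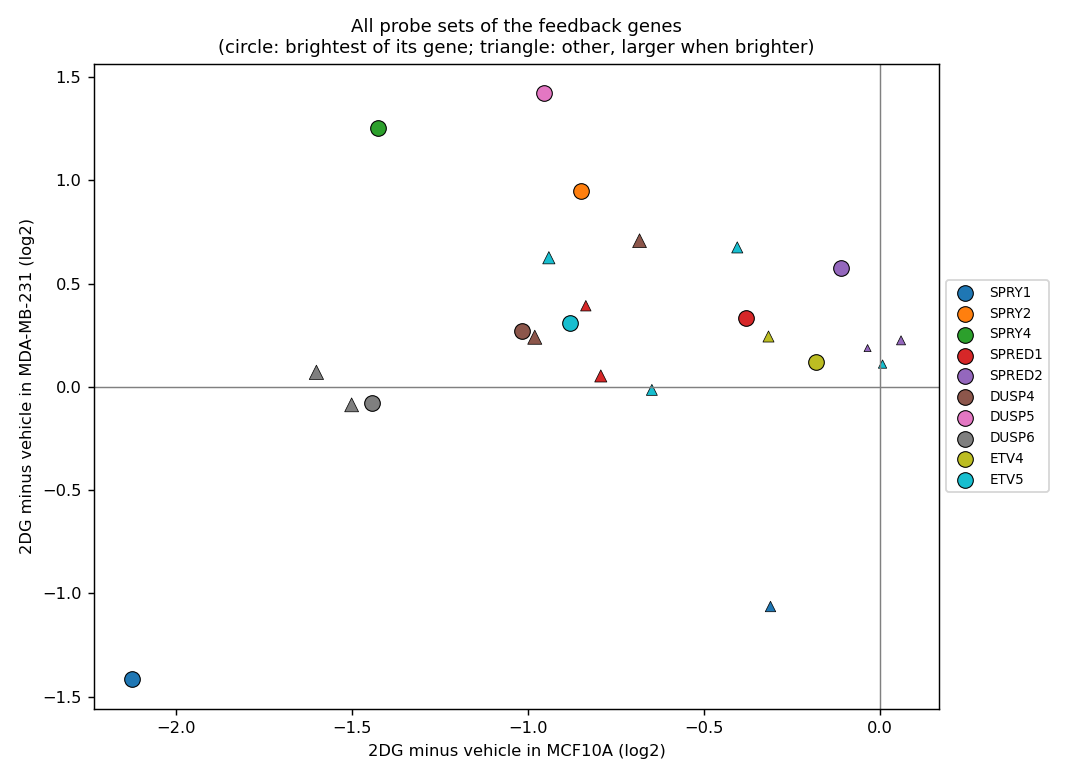
Change with 2DG (log2) in MCF10A (horizontal axis) against MDA-MB-231 (vertical axis) for each of the 24 probe sets; circles are the brightest of a gene, triangles the others, drawn larger when brighter. Most points lie at upper left, below 0 in MCF10A and above 0 in MDA-MB-231, DUSP6 lies along 0 on the vertical axis, and both SPRY1 probe sets lie at lower left.

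The lines differed before any treatment. On vehicle 9 of the 10 genes were higher in MDA-MB-231 than in MCF10A, where 29.2% of all genes were higher and 26.8% lower. The arrays of the lines did not overlap for 9 genes (27.8% of all genes). SPRY1 differed by 2.40 ± 0.063, a 5.29-fold difference, SPRY2 by 1.74 ± 0.034 and ETV4 by 1.51 ± 0.12. DUSP4, DUSP5 and SPRY4 differed by 1.47, 1.40 and 1.27, and SPRED2, DUSP6 and ETV5 by 0.67, 0.66 and 0.55. SPRED1 did not pass, at 0.09 with a 95% confidence interval from -0.04 to 0.22 (limma adjusted p = 0.229), but its mean over all probe sets was 0.36 higher in MDA-MB-231 (adjusted p = 4.43e-05). On 235074_at the lines did not overlap on vehicle and SPRED1 was 0.72 ± 0.067 higher in MDA-MB-231 (adjusted p over probe sets = 7.02e-08). ETV5 was -0.02 on 230102_at (adjusted p = 0.922).

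With 2DG all 10 genes were higher in MDA-MB-231 and no arrays of the lines overlapped, where 30.7% of all genes were called higher, 28.8% lower, and 29.1% were higher without overlap. The gap between the lines was 3.95 ± 0.052 for SPRY4, 15.5-fold, against 2.42-fold on vehicle. It was 13.7-fold for DUSP5 (2.64-fold on vehicle) and 11.6-fold for SPRY2 (3.33-fold on vehicle). SPRED1, which did not pass on vehicle, was 0.80 ± 0.060 higher in treated MDA-MB-231 (limma adjusted p = 3.37e-09). These comparisons and the responses above use the same arrays, so they are different views of 1 set of values.

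**Figure D4:**
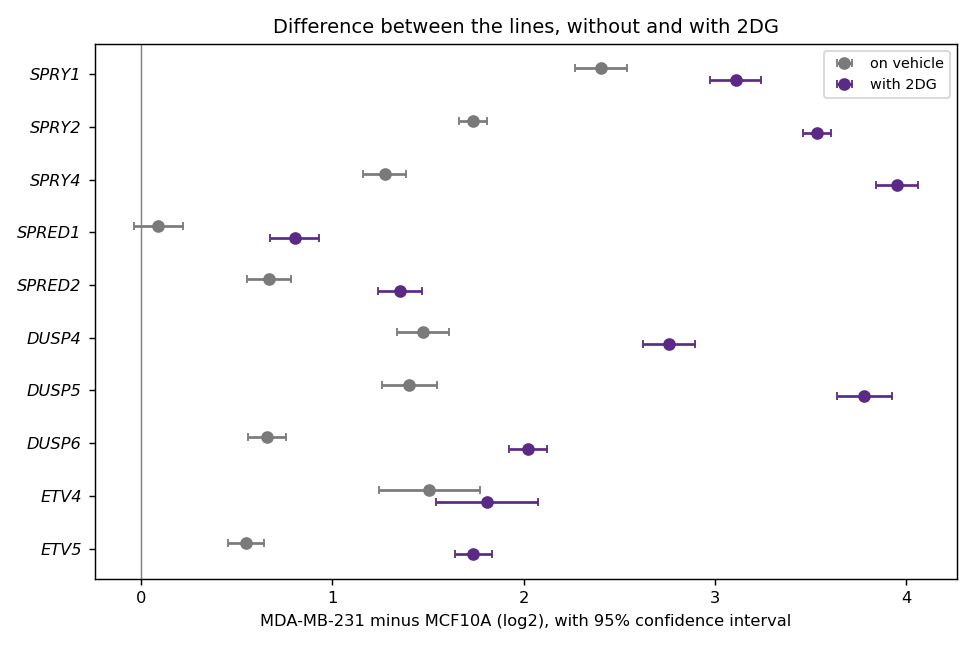
Difference between the lines (MDA-MB-231 minus MCF10A, log2, horizontal axis) for each gene on vehicle and with 2DG, with 95% confidence intervals of the limma fit. The values with 2DG lie to the right of those on vehicle for every gene, from 0.09 to 0.80 for SPRED1 and from 1.27 to 3.95 for SPRY4.

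The order of the 4 groups was MDA-MB-231 with 2DG, MDA-MB-231 on vehicle, MCF10A on vehicle and MCF10A with 2DG for 8 of the 10 genes, from high to low. Neighbours in this order did not overlap for SPRY2, SPRY4, SPRED2, DUSP5 and ETV5. For DUSP4 the upper pair overlapped, for SPRED1 the middle pair, and for ETV4 the upper and the lower pair. SPRY1 and DUSP6 had MDA-MB-231 on vehicle at the top, with an overlap of the upper pair for DUSP6.

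Other genes of the pathway were counted from 5 lists chosen with earlier results known, each gene by its brightest probe set. Of 20 further ERK outputs and partners of the PEA3 factors, 5 rose and 11 fell in MCF10A, with a median change of -0.43, and 13 rose and 5 fell in MDA-MB-231, with a median of 0.50. In 6 of the 20 the change was a fall in MCF10A and a rise in MDA-MB-231, as for most members: ELK3, ETS1, IER3, EPHA2, PLAUR and LIF. IER3, an early response gene, fell by 0.99 and rose by 1.56, and the receptor gene EPHA2 fell by 0.66 and rose by 0.59. For PLAUR 1 of 3 probe sets fell in MDA-MB-231 and was called.

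Within the same list some genes moved alike in the lines. EGR1, an immediate-early zinc finger factor, rose by 2.22 in MCF10A and by 1.67 in MDA-MB-231, on all of its 3 probe sets. CCND1, which encodes cyclin D1, fell by 1.73 and by 0.80. ETV1, the other PEA3 factor, fell by 2.12 in MCF10A and by 0.40 in MDA-MB-231, but its 5 probe sets ranged from -2.12 to 0.19 and from -1.28 to 0.21. CIC, the repressor named above, rose by 0.80 and 0.77 on its single probe set. CIC and the 6 genes with opposite changes are named here after their values were seen.

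The other MAP kinase phosphatases did not fall together with DUSP4, DUSP5 and DUSP6. Of 7 measured, 3 rose and 2 fell in MCF10A (median 0.09), and 4 rose in MDA-MB-231 (median 0.32). DUSP10, which acts on the stress kinases JNK and p38, rose by 2.04 in MCF10A and by 1.27 in MDA-MB-231. DUSP1, an early response phosphatase of the nucleus, rose by 1.36 and by 1.52, and DUSP16, which acts on JNK, by 1.17 and by 1.39, also named after its values were seen. All probe sets of these 3 genes had positive changes. DUSP2 fell by 0.55 in MCF10A, and DUSP7, an ERK phosphatase of the cytoplasm like DUSP6, fell there by 0.25 and is named after its values were seen.

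The cascade itself and its remaining brakes went both ways. Of 15 measured genes of the cascade, from adaptors to kinases, 9 rose and 5 fell in each line, with medians of 0.16 and 0.22. The docking protein gene GAB1 rose by 1.40 in MCF10A, although 1 of its 7 probe sets fell there and was called, and 3 did so in MDA-MB-231. KSR1, a scaffold for RAF and MEK, rose by 0.95 in MDA-MB-231, and the phosphatase gene PTPN11 fell by 0.52 and 0.55, with 3 of its 6 probe sets of the other sign in MDA-MB-231, none called. Of 12 measured brakes, 6 rose and 4 fell in MCF10A and 4 rose and 5 fell in MDA-MB-231 (medians 0.11 and 0.03). The ubiquitin ligase gene CBLB rose by 3.85 and 2.20, and SOCS3, an inhibitor of cytokine receptors, fell by 1.53 and 0.83, with 2 of its 4 probe sets of the other sign in each line, none called. SPRY3, the remaining Sprouty gene and named after its values were seen, rose by 0.55 in MCF10A, and its change in MDA-MB-231 was 0.15 (limma adjusted p = 0.188).

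Receptors and ligands above the cascade mostly rose in MCF10A. Of 15 measured, 10 rose and 2 fell there (median 0.34), and 8 rose and 1 fell in MDA-MB-231 (median 0.11). The receptor gene ERBB3 rose by 1.85 in MCF10A on its brightest probe set, and 1 of its 5 probe sets had the other sign. The ligand genes TGFA and EREG were the ones that fell there, by 0.86 and 0.60, and both rose in MDA-MB-231, by 0.35 and 1.57. ERBB2 fell in MDA-MB-231 by 0.39, but 1 of its 3 probe sets had the other sign. Medians and counts of these lists are descriptions beside the shares of all genes given above.

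**Figure D5:**
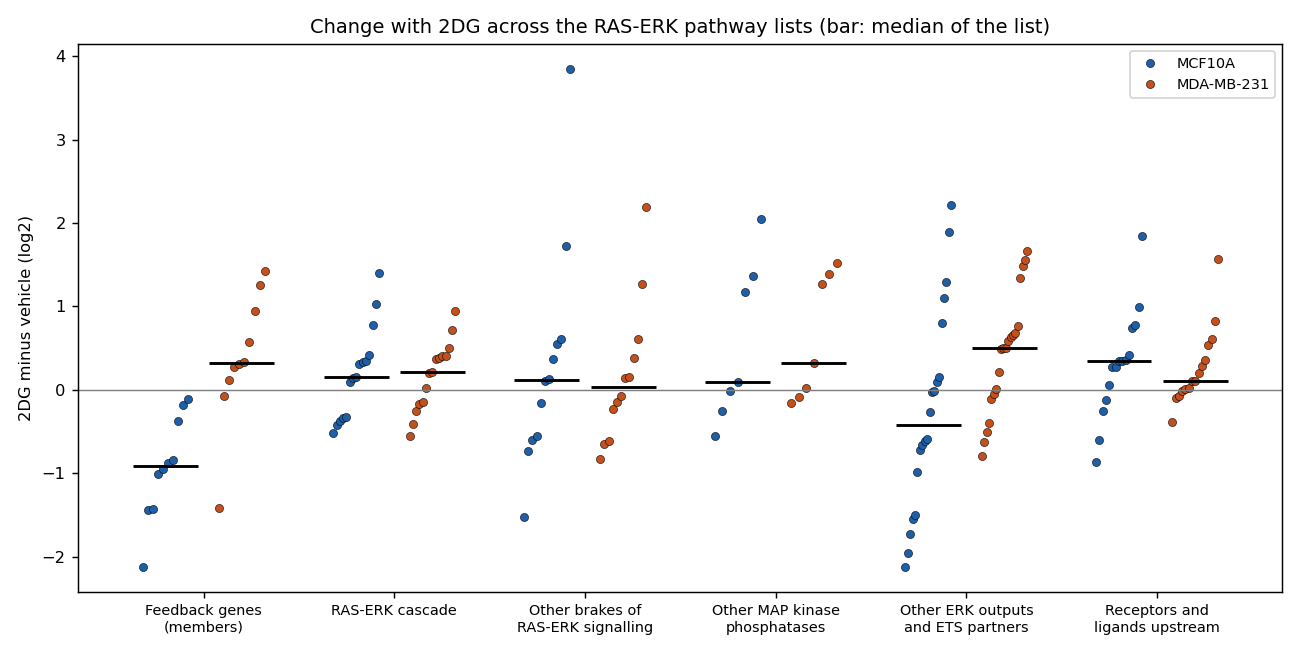
Change with 2DG (log2, vertical axis) of the 10 members and of 5 lists of other pathway genes in MCF10A and MDA-MB-231; each point is a gene by its brightest probe set and bars are medians. The medians of the further ERK outputs stand at -0.43 and 0.50, those of the members at -0.92 and 0.32, and those of the other lists lie between 0.03 and 0.34 in both lines.

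Genes with patterns most like those of the members were sought over the 16 arrays, among the 6284 or 6285 other genes whose group means spanned at least 1 log2 unit. The arrays fall into 4 groups, so these correlations mainly compare group means and are given as a description. For SPRY2 they were MTG2 and C1GALT1 (both r = 0.997), for SPRY4 SMAGP (0.998) and MCTP1 (0.996), and for DUSP5 E2F7 and XRCC4 (both 0.997). For DUSP4 they were ADAMTS1 (0.998) and DISP2 (0.996), for ETV5 LPXN (0.998) and RASSF1 (0.996), and for SPRED2 FADD and NANS (both 0.995). DUSP6 was closest to ECT2 (0.998) and SLC25A30 (0.997), SPRY1 to HYI (0.998) and NSD2 (0.997), ETV4 to APCDD1L (0.990) and ACADL (0.986), and SPRED1 to LGMN (0.972) and SERPINI1 (0.967). No member was among the closest genes of another by this rule. Among the members the highest r was 0.991, between SPRY4 and DUSP5, and the lowest 0.690, between SPRY1 and SPRED2.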

How the data were processed

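The deposited values are log2 probe set summaries that the authors made with RMA (background correction, quantile normalization and summary of probes), per the submitters' processing notes. The RMA version is not given in the sources used here. Of 54675 probe sets, 41091 carried 1 gene in GEO's platform annotation, 1801 carried several and were left out, and the rest were unnamed or controls. Each of 19775 genes was represented by its brightest probe set.

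Group means were estimated with limma (version 3.58.1, under R 4.3.3; lmFit and eBayes), 4 of them from 16 arrays (12 residual degrees of freedom). Tests were two-sided with Benjamini-Hochberg adjustment over all genes, or over all 41091 probe sets where single probe sets are given. No filter on dim genes was applied. No 2 arrays were identical. The number of arrays limits the precision.

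The members, lists and motifs were chosen with earlier results of these data known, the motifs also with the promoter windows in view. Genes outside the members were named by rule, apart from those said to be named after their values were seen: per list and line the largest called rise and fall without overlap, and per member the 2 most correlated genes. Genes of the lists without a value are not analysed here. Alternatives changed the probe set, variance model, blocks, arrays, dim genes, scaling and RNA control.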

Additional observations from a re-analysis of the deposited data

Results flagged for a closer look

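The 2DG response differed between the lines, by the interaction test of limma, for 9 of the 10 genes, all higher in MDA-MB-231. That direction was called for 22.3% of all genes. The differences (MDA-MB-231 minus MCF10A, log2) were 2.68 for SPRY4 (adjusted p = 1.12e-13), 2.38 for DUSP5 (7.44e-12), 1.80 for SPRY2 (8.12e-14), 1.37 for DUSP6 (5.79e-11), 1.29 for DUSP4 (5.52e-09) and 1.19 for ETV5 (1.78e-10). They were 0.71 for SPRED1 (2.52e-06), 0.71 for SPRY1 (5.16e-06) and 0.69 for SPRED2 (1.17e-06). All 9 lay lower in the 4 treated MCF10A arrays than in any vehicle array (24.2% of all genes). In MDA-MB-231, 7 were called higher (25.5% of all genes). The actin 3'/5' ratio was higher with 2DG in both lines (means above), and with that ratio as a covariate each of these calls kept its direction and its side of the threshold. The direction for SPRY1 rests on the brightest probe set, as given above.

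Single arrays stood far from the other 3 of their group in 3 of 40 pairs of a gene and a group, where chance gives about 1 in 20. DUSP5 read 8.71 in MCF10A 2DG replicate C and 11.08 in MDA-MB-231 vehicle replicate B, and ETV4 read 8.91 in MDA-MB-231 vehicle replicate B. Replicate B is also the array with the high actin ratio, and its part in these values was not tested beyond leaving it out. Without it DUSP5 rose by 1.49 and ETV4 changed by 0.22 (adjusted p = 0.168) in MDA-MB-231.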

How the results depend on the processing

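The 190 counts of called members under other settings stayed within 1.5 times their values, 179 of them equal. Shared probe sets were taken by name alone, as those ending in _s_at, _x_at or _a_at, although all used here carry 1 gene symbol. Without them only 8 members had a value. The only probe set of SPRY4 and those of ETV4 have such names, so these genes could not be checked this way. Of 940 values of single members, 929 kept direction and side of the threshold, 7 newly passed and 4 turned, of which 3 lost their call (SPRY1 and both of ETV5, below). Leaving out any array lost no call. Values that turned were those of ETV4 in MDA-MB-231 with the actin ratio as covariate (-0.10), of SPRY1 for the difference between lines with the mean of all probe sets (-0.0225), and of ETV5 without shared probe sets in MDA-MB-231 (-0.015) and between lines on vehicle (-0.0225); a change of probe set is what these last settings consist of. SPRED2 passed in MCF10A (adjusted p 0.0167 to 0.0496) with trend and robust variances, with 8 arrays, after centring or with the actin ratio, and ETV4 there with the mean of its probe sets (-0.25, adjusted p = 0.0416). Scaling alternatives moved the median of all genes by less than 0.1.

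With other probe sets, an alternative chosen after seeing the data, 14 of 70 values lost their call, 4 of them among the 7 that turned: DUSP6 in MDA-MB-231 (0.07), ETV5 in MCF10A (0.0075), in MDA-MB-231 (-0.015) and between lines on vehicle (-0.0225), SPRED2 in MCF10A (0.06) and between lines on vehicle (-0.0275), and SPRY1 for the difference between lines (-0.75).

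Same-lettered replicates varied together little (24 correlations from -0.10 to 0.09). Those between vehicle and 2DG in MCF10A ran from 0.04 to 0.09. By mean correlation, 8 of 16 arrays were closest to their own letter in the other groups, where each array had 4 letters to match. The labels do not say what a letter shares, and the letters were not taken to pair samples. With the replicate block 8 members fell in MCF10A and 7 rose in MDA-MB-231, as without it.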
